A study of Saccharomyces cerevisiae with 8 samples.

Results

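AhPDF1.1b, a plant defensin of Arabidopsis halleri, was compared with its absence in yeast growing under zinc excess, on 4 of the 8 arrays of the series. The comparison was defined by the sample labels alone, as 2 arrays of yeast expressing AhPDF1.1b with 20 mM ZnSO4 (AhPDF1.1b yeast below) and 2 arrays of yeast not expressing it on the same zinc dose (WT yeast below). All cells were BY4741 (MATa his3Δ1 leu2Δ0 met15Δ0 ura3Δ0), a haploid laboratory strain, and all carried the empty HIS3 vector pFL38H. The defensin was made from plasmid pYX212 under the yeast Triose Phosphate Isomerase promoter, and the labels name no empty pYX212 in WT yeast. However, the study's RT-PCR of KAR2 and HRD1 used yeast with empty pYX212 as the control. On these arrays WT yeast also gave a high signal for URA3, the marker of pYX212 (values below), although the strain is ura3Δ0. Colonies grew on solid medium derived from YNB at 30°C, with methionine and leucine added, and were taken at a diameter of 0.48 ± 0.02 mm. The labels give this diameter but no growth time. The other 4 arrays held AhPDF1.1b yeast and WT yeast, 2 biological replicates each, on control medium without added zinc.

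Plant defensins are small secreted proteins held together by several disulfide bonds, and AhPDF1.1b comes from a plant that tolerates high zinc. The study expressed it in yeast to examine zinc tolerance, which is why transcripts were compared here at a high zinc dose. Zinc is required by a large number of enzymes, but in excess it competes with other metals and binds thiols. Yeast takes it up through ZRT1 and ZRT2 under the control of the activator ZAP1, and stores the excess in the vacuole through ZRC1 and COT1. Proteins entering the endoplasmic reticulum (ER) are folded there by chaperones such as KAR2, and misfolded ones are returned to the cytosol for degradation. The study reports from earlier work that yeast does not secrete AhPDF1.1b, which stays in the ER and in prevacuolar compartments.

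Every array was hybridised with 1 sample only, and all values given are log2 signals as deposited, so that a difference of 1 is a doubling. Differences are AhPDF1.1b yeast minus WT yeast, both under zinc unless said otherwise, with the standard error (SE) of a limma fit over all 8 arrays and a p-value adjusted over all genes. A gene rose or fell when this adjusted p was under 0.05. Both zinc arrays of AhPDF1.1b yeast lay on slide 1 and both of WT yeast on slide 2, so slide and defensin cannot be told apart directly. Counts from a fit with slide as a block, which takes the slide difference from the control-medium arrays present on both slides, are therefore given beside the main counts. Replicates correlated at 0.996 to 0.998 across probes. Their median absolute difference was 0.08 in each zinc condition, against 0.21 to 0.22 between arrays of the 2 zinc conditions. The transcript of the defensin itself was not identified on the array, so the construct was not checked by it.

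Yeast with AhPDF1.1b differed from WT yeast under zinc in a large part of its genes, and the largest differences were decreases. Of 6226 genes tested, 1667 rose (26.8%) and 1370 fell (22.0%), or 48.8% in all. The counts of gene lists given below are to be read beside these shares. With slide as a block 889 rose (14.3%) and 866 fell (13.9%), and 1739 of the 3037 genes called in the main fit were called in the same direction. Among the called genes 42 rose and 141 fell by at least 1 on the log2 scale, and all 183 of these also passed with slide as a block. A decrease of 2 or more was found for 26 genes, an increase of that size for 1. The median difference over all genes was 0.03, and the median size of a called difference was 0.41. All 3037 called genes had zinc arrays that did not overlap between the conditions, as did 4595 of all genes tested.

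**Figure D1:**
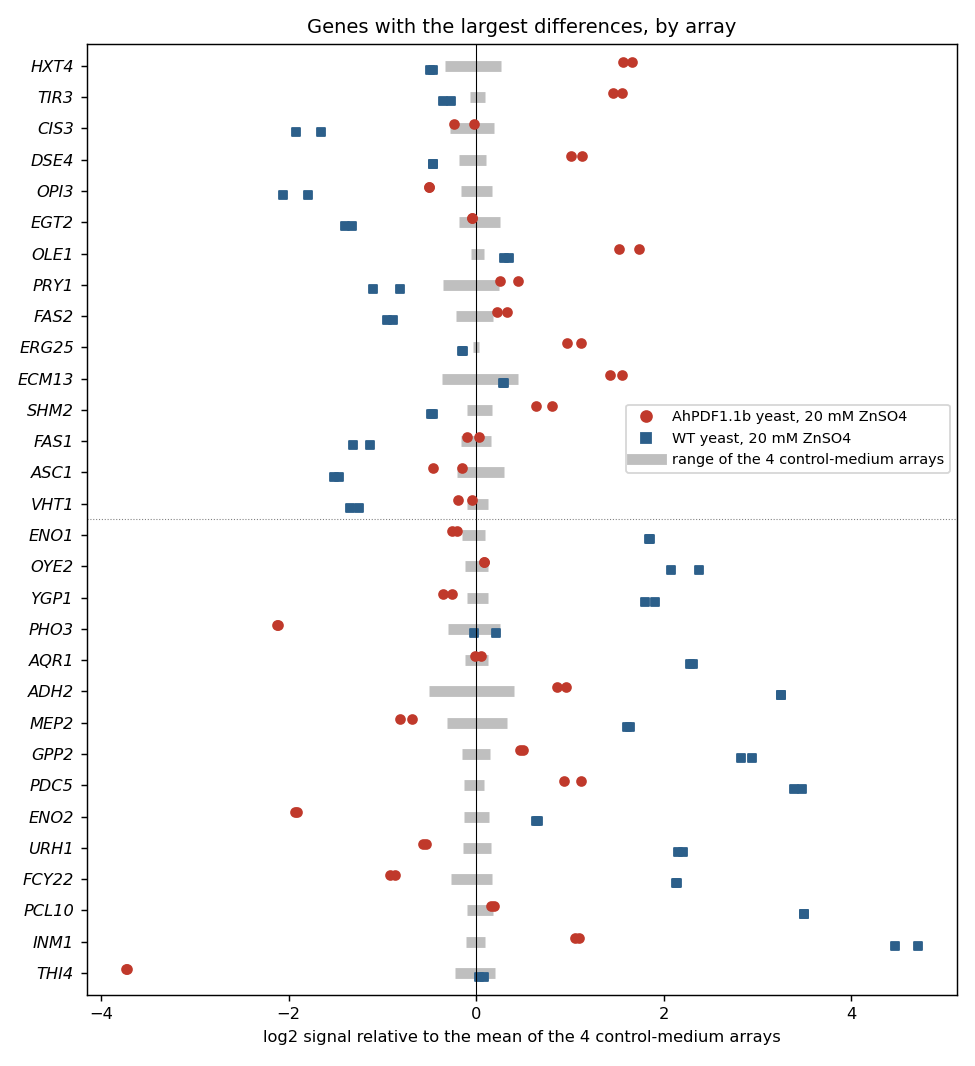
Log2 signal of the 15 genes with a symbol that rose most (above the dotted line) and the 15 that fell most (below it) in AhPDF1.1b yeast against WT yeast under zinc, given relative to the mean of the 4 control-medium arrays. Circles are the 2 arrays of AhPDF1.1b yeast, squares the 2 arrays of WT yeast, and grey bars the range of the control-medium arrays. For INM1, PCL10 and AQR1 the WT yeast arrays lie far from the control-medium range, whereas for THI4, PHO3 and ENO2 the AhPDF1.1b yeast arrays lie farther from it.

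The 2 zinc conditions stood at different distances from control medium. In 3694 of the 6226 genes (59.3%) the mean of WT yeast was farther from the mean of the 4 control-medium arrays than that of AhPDF1.1b yeast, and in 1982 of the 3037 called genes (65.3%). Among genes that fell this share was 68.9%, and among genes that rose 62.3%. The opposite order was found for 1055 called genes. The plot of the largest differences by array shows both kinds.

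THI4 (YGR144W), which encodes the enzyme that makes the thiazole ring of thiamine, had the largest decrease of all named genes. Its log2 signal was 10.64 and 10.63 in AhPDF1.1b yeast, against 14.39 and 14.45 in WT yeast. The 4 control-medium arrays lay between 14.13 and 14.56, so WT yeast under zinc kept the control-medium level and AhPDF1.1b yeast was 13.8-fold lower than WT yeast (log2 difference -3.79, SE 0.06, adjusted p = 1.25e-10). Thiamine pyrophosphate is the cofactor of pyruvate decarboxylase, pyruvate dehydrogenase and transketolase, and its synthesis genes are turned on when thiamine is scarce. PHO3, an acid phosphatase that frees thiamine from its phosphates outside the cell, gave 6.71 and 6.71 in AhPDF1.1b yeast, against 9.04 and 8.80 in WT yeast (difference -2.21, adjusted p = 3.4e-08). THI20 (-1.35), a kinase of the pyrimidine ring, THI6 (-1.27), which joins both rings, and the activator gene THI2 (-0.43) also fell, as did the regulator gene THI3 (-0.35), whose call was lost with slide as a block (adjusted p = 0.33) and without WT replicate 2 or AhPDF1.1b replicate 2.

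THI5 and its copies, which act in making the pyrimidine ring of thiamine, differed the other way from THI4. THI5 gave 8.39 and 8.38 in AhPDF1.1b yeast, against 7.58 and 7.55 in WT yeast, a difference of 0.82 (SE 0.06, adjusted p = 3.9e-06). Both zinc conditions were far under the control-medium range of THI5, 12.06 to 12.33. The other 3 genes that rose were THI12 (0.72), THI11 (0.67) and THI13 (0.32), near-identical copies of THI5 that the probes may not tell apart. The THI13 call was lost with slide as a block (adjusted p = 0.072) and without WT replicate 2, AhPDF1.1b replicate 1 or AhPDF1.1b replicate 2. In all, 4 of 19 measured thiamine genes rose and 9 fell (3 and 7 with slide as a block), with a median of -0.04. Within this list THI4 had the lowest difference and THI5 the highest.

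Glycolysis and alcoholic fermentation had the lowest median of the 54 lists, apart from the plasmid markers. Of 24 measured genes, 3 of them regulators, 19 fell and 2 rose (17 and 2 with slide as a block), with a median of -0.57. Taken against each control condition on the same slide, this median was -0.54 with WT yeast as the control and -0.67 with AhPDF1.1b yeast. ENO2 (YHR174W), an enolase, gave 12.03 and 12.05 in AhPDF1.1b yeast, against 14.61 and 14.62 in WT yeast (5.95-fold lower, difference -2.57, SE 0.09, adjusted p = 1.8e-08). Its control-medium arrays ranged from 13.84 to 14.10, between both zinc conditions but nearer to WT yeast. ENO1, the other enolase, gave 12.99 and 12.94 in AhPDF1.1b yeast, against 15.04 and 15.05 in WT yeast (difference -2.08, adjusted p = 2.1e-08), and here AhPDF1.1b yeast was near the control-medium range of 13.05 to 13.29. The enolase genes are near-identical, so part of the signal of one may come from the other.

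The decreases ran along most of the pathway. PFK2, a subunit of phosphofructokinase, gave 11.07 and 10.99 in AhPDF1.1b yeast, against 12.43 and 12.64 in WT yeast (difference -1.51, adjusted p = 1.1e-06), while its partner subunit gene PFK1 fell by 0.54. The glyceraldehyde-3-phosphate dehydrogenase genes TDH2 (-1.89), TDH3 (-1.13) and TDH1 (-1.04) and the phosphoglycerate kinase gene PGK1 (-1.17) fell, as did the triose phosphate isomerase gene TPI1 (-0.59), whose promoter drives the defensin. PDC5, a minor pyruvate decarboxylase, gave 12.78 and 12.59 in AhPDF1.1b yeast, against 15.13 and 15.04 in WT yeast (difference -2.41, adjusted p = 1.8e-08). Its control-medium arrays ranged from 11.53 to 11.74, under both zinc conditions. The major isoform PDC1 did not pass (0.24, adjusted p = 0.19), nor did the main fermentative alcohol dehydrogenase ADH1 (-0.11, adjusted p = 0.28). The 2 genes that rose were PDC6 (0.92), another pyruvate decarboxylase, and the hexokinase HXK1 (0.36), whose call was lost without WT replicate 1. The activators of glycolytic genes fell together, TYE7 by 1.95, GCR2 by 0.55 and GCR1 by 0.44.

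Uptake and storage of carbon changed in both directions. HXT4, a glucose transporter, had the largest increase of all named genes, with 12.62 and 12.52 in AhPDF1.1b yeast, against 10.50 and 10.47 in WT yeast (4.24-fold higher, difference 2.08, SE 0.08, adjusted p = 1.8e-08). HXT1, a low-affinity transporter, gave 10.89 and 11.01 in AhPDF1.1b yeast, against 12.95 and 12.99 in WT yeast (difference -2.02, adjusted p = 1.4e-08). The invertase SUC2 (0.92) and the high-affinity transporter HXT7 (0.68) rose as well. Of 25 measured genes of hexose transport 7 rose and 2 fell (5 and 2 with slide as a block). The share that rose, 28.0%, was near the 26.8% of all genes, and the share that fell, 8.0%, was under their 22.0%.

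GPP2 (YER062C), a glycerol-3-phosphatase that makes glycerol, gave 10.63 and 10.66 in AhPDF1.1b yeast, against 13.11 and 12.99 in WT yeast (difference -2.40, adjusted p = 4.6e-09). The other isoform, GPP1, fell by 0.78, the dihydroxyacetone kinase DAK2 fell by 1.61, and the dehydrogenase GPD1 of the preceding step rose by 0.59. PCL10, a cyclin that directs the kinase Pho85 to glycogen synthase, gave 8.27 and 8.24 in AhPDF1.1b yeast, against 11.58 and 11.58 in WT yeast (difference -3.32, SE 0.08, adjusted p = 1.0e-09). The control-medium arrays of PCL10 ranged from 7.98 to 8.26, so AhPDF1.1b yeast lay at the control-medium level and WT yeast 10.0-fold above AhPDF1.1b yeast. Among the other 16 glycogen genes 6 rose and 3 fell (1 and 2 with slide as a block), between -0.50 for the phosphatase subunit PIG2 and 0.51 for the glycogen phosphorylase GPH1. ADH2, the alcohol dehydrogenase that consumes ethanol, fell by 2.34 (8.44 and 8.33 in AhPDF1.1b yeast, against 10.73 and 10.72 in WT yeast). Of 14 measured genes of gluconeogenesis and the glyoxylate cycle 6 rose and 5 fell (5 and 4 with slide as a block). Isocitrate lyase ICL1 (0.92), the malate dehydrogenase MDH2 (0.92) and the mitochondrial transporter SFC1 (1.16) rose, whereas the acetate transporter ADY2 (-0.87) and the activator gene CAT8 (-0.53) fell.

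Mitochondrial energy genes were mostly higher. In the tricarboxylic acid (TCA) cycle and pyruvate dehydrogenase list 22 of 27 measured genes rose and 2 fell (14 and 2 with slide as a block), with a median of 0.42. IDH1, a subunit of isocitrate dehydrogenase, gave 11.72 and 11.76 in AhPDF1.1b yeast, against 10.91 and 10.83 in WT yeast (difference 0.87, SE 0.07, adjusted p = 4.7e-06). IDH2 (0.80), SDH3 of succinate dehydrogenase (0.75) and the dihydrolipoamide dehydrogenase LPD1 (0.71) followed. Both genes that fell encode transcription factors of the signal from mitochondria to nucleus, RTG3 (-1.02) and RTG1 (-0.20). The call of RTG1 was lost without any 1 of 6 of the 8 arrays, all but those of AhPDF1.1b yeast on control medium.

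Of 39 measured genes of the respiratory chain and ATP synthase 29 rose and 1 fell (20 and 1 with slide as a block), with a median of 0.38. The ATP synthase gene ATP7 gave 12.01 and 12.07 in AhPDF1.1b yeast, against 11.09 and 11.10 in WT yeast (difference 0.94, SE 0.07, adjusted p = 5.3e-06), and its control-medium arrays, from 12.31 to 12.51, were above both. ATP1 (0.92), a subunit gene of the catalytic head, ATP5 (0.76), CYT1 of complex III (0.75) and QCR6 of the same complex (0.60) also rose. COX7, a subunit of cytochrome c oxidase, was the 1 gene that fell (-0.61). The median of the list relative to control medium was -0.29 in AhPDF1.1b yeast and -0.69 in WT yeast. The heme-responsive regulator gene HAP1 rose by 0.42 and HAP4 by 0.24, and with slide as a block neither passed (adjusted p = 0.061 and 0.24). Without WT replicate 1 or AhPDF1.1b replicate 1 the HAP4 call was also lost.

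**Figure D2:**
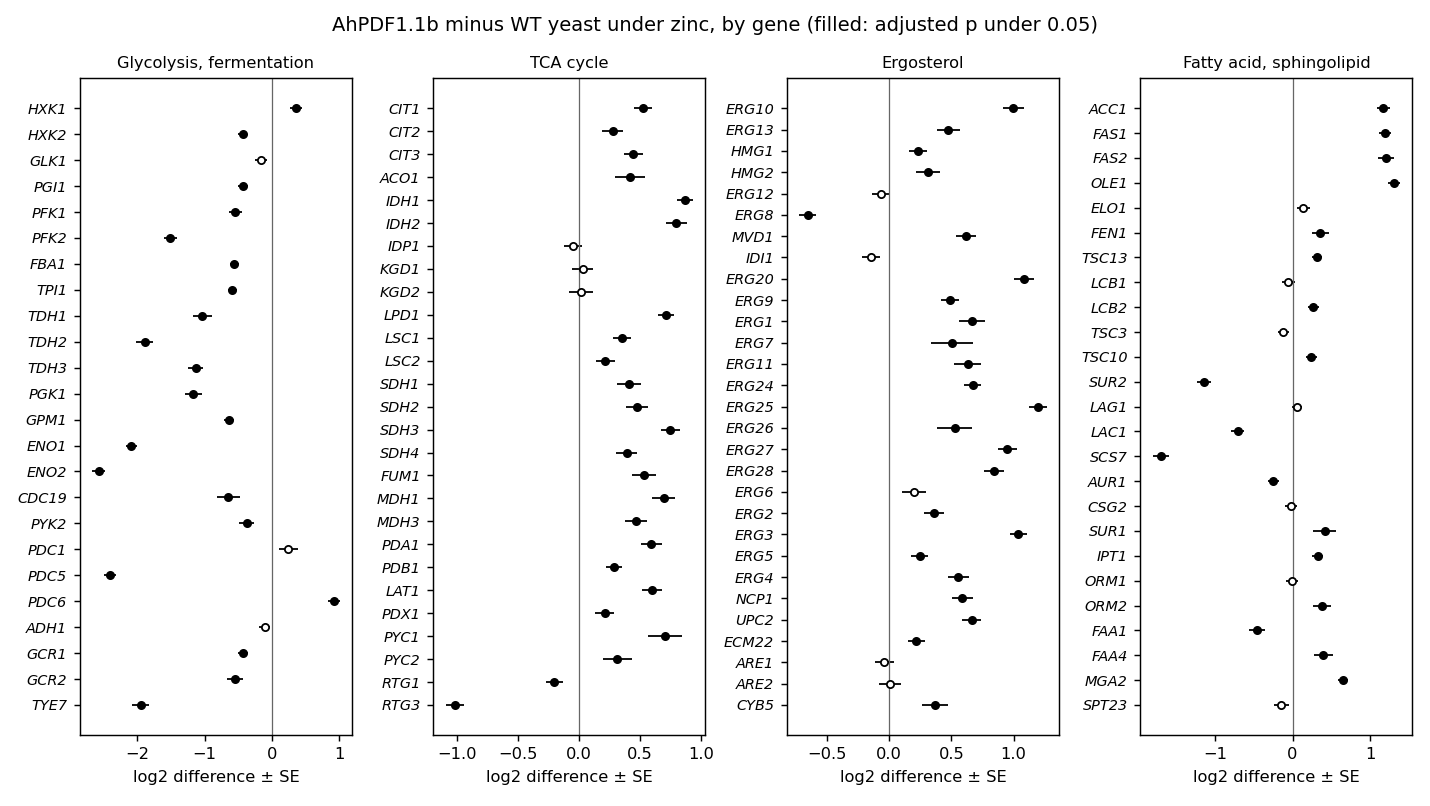
Difference between AhPDF1.1b yeast and WT yeast under zinc for each measured gene of 4 lists (log2, points, with the SE of the limma fit as bars), roughly in the order of the pathway, with regulators towards the end. Filled points passed at an adjusted p under 0.05. Glycolytic genes lie mostly left of 0, whereas TCA cycle and ergosterol genes lie mostly right of it, and SCS7 and SUR2 stand apart from the fatty acid genes.

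More genes rose than fell in each of the 3 lists of lipid synthesis. For ergosterol, the sterol of yeast membranes, 23 of 29 measured genes rose and 1 fell (16 and 1 with slide as a block), with a median of 0.51. ERG25 (YGR060W), a sterol methyl oxidase, gave 12.72 and 12.87 in AhPDF1.1b yeast, against 11.60 and 11.61 in WT yeast (2.29-fold higher, difference 1.20, SE 0.07, adjusted p = 6.3e-07). WT yeast lay just under the control-medium range of ERG25, 11.72 to 11.78, and AhPDF1.1b yeast lay above it. ERG20 of farnesyl diphosphate synthesis (1.09), the desaturase ERG3 (1.04), ERG10 of the first step (1.00) and the reductase ERG27 (0.95) rose too. The gene that fell was ERG8, phosphomevalonate kinase (-0.65), and the other 5 did not pass. UPC2, which encodes a sterol-sensing activator of the pathway, gave 8.64 and 8.64 in AhPDF1.1b yeast, against 7.94 and 8.01 in WT yeast (difference 0.66, adjusted p = 5.4e-05). Its homologue ECM22 had a difference of 0.22, whose call was lost with slide as a block (adjusted p = 0.12) and without WT replicate 1, WT replicate 2 or AhPDF1.1b replicate 1.

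Among fatty acid genes, those of the desaturase, of both subunits of fatty acid synthase and of acetyl-CoA carboxylase rose. OLE1 (YGL055W), the only fatty acid desaturase of yeast, gave 14.53 and 14.74 in AhPDF1.1b yeast, against 13.36 and 13.30 in WT yeast (2.47-fold higher, difference 1.30, SE 0.08, adjusted p = 8.0e-07). Its control-medium arrays, from 12.95 to 13.09, were under both. FAS1 gave 12.42 and 12.28 in AhPDF1.1b yeast, against 11.07 and 11.25 in WT yeast (1.19), and FAS2, the other subunit of fatty acid synthase, differed by 1.20. Acetyl-CoA carboxylase ACC1 rose by 1.17, and MGA2, an activator of OLE1, by 0.65. Its homologue SPT23 did not pass (-0.14, adjusted p = 0.23).

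Hydroxylases of sphingolipids fell in the same list. SCS7, which hydroxylates the fatty acid part of ceramides, gave 9.67 and 9.84 in AhPDF1.1b yeast, against 11.49 and 11.41 in WT yeast (difference -1.70, SE 0.10, adjusted p = 7.1e-07). SUR2, which hydroxylates the long-chain base, gave 10.07 and 10.20 in AhPDF1.1b yeast, against 11.37 and 11.17 in WT yeast (-1.14). The ceramide synthase LAC1 (-0.71), the acyl-CoA synthetase FAA1 (-0.46) and AUR1 of inositol phosphorylceramide synthesis (-0.25) were the other genes that fell. The AUR1 call was lost with slide as a block (adjusted p = 0.18) and without WT replicate 1 or AhPDF1.1b replicate 2. Of the 25 measured genes 13 rose and 5 fell (9 and 4 with slide as a block).

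INM1 (YHR046C), an inositol monophosphatase, had the second largest decrease among named genes. It gave 8.87 and 8.90 in AhPDF1.1b yeast, against 12.52 and 12.27 in WT yeast (11.4-fold lower, difference -3.51, SE 0.08, adjusted p = 1.0e-09). The control-medium arrays of INM1 ranged from 7.71 to 7.90, so that both zinc conditions were above control medium and WT yeast much further. Genes of phosphatidylcholine synthesis moved the other way. OPI3, the last methyltransferase, gave 14.12 and 14.12 in AhPDF1.1b yeast, against 12.56 and 12.83 in WT yeast (1.43), CHO2, the first one, differed by 0.94, and the choline transporter HNM1 by 0.75. Of 21 measured genes of inositol and phospholipid metabolism 11 rose and 3 fell (7 and 2 with slide as a block). The activator genes INO2 (0.17) and INO4 (0.14) and the repressor gene OPI1 (-0.15) did not pass (adjusted p from 0.091 to 0.097).

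Metal genes showed no common direction. Of 15 measured genes of the ZAP1 regulon 5 rose and 4 fell (3 and 3 with slide as a block), with a median of -0.001. These shares, 33.3% and 26.7%, were not far from those of all genes (26.8% and 22.0%). MCD4, which builds GPI anchors, gave 7.96 and 7.96 in AhPDF1.1b yeast, against 7.04 and 7.00 in WT yeast (0.94), and the lipid phosphatase DPP1 rose by 0.66. ADH4, an alcohol dehydrogenase, fell by 0.79 and FET4, a low-affinity metal transporter, by 0.72. ZAP1 itself did not pass (0.17, adjusted p = 0.11), and the transporter gene ZRT1 had a difference of -0.0005 (SE 0.06, adjusted p = 1), whereas ZRT2 rose by 0.42. Among the vacuolar and ER zinc transporters ZRC1 gave 9.40 and 9.46 in AhPDF1.1b yeast, against 9.99 and 10.01 in WT yeast (-0.57, adjusted p = 0.00052). The other 4 of these transporters did not pass, among them COT1 (0.20, adjusted p = 0.14).

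Among copper genes, those of a chaperone and of the copper sensor fell most. CCS1, the chaperone that loads copper into superoxide dismutase, gave 10.15 and 10.23 in AhPDF1.1b yeast, against 11.98 and 11.81 in WT yeast (difference -1.71, SE 0.08, adjusted p = 9.8e-08). MAC1, the copper-sensing activator of copper uptake, gave 7.91 and 8.00 in AhPDF1.1b yeast, against 9.35 and 9.22 in WT yeast (-1.33). AhPDF1.1b yeast lay just under the control-medium range of CCS1, 10.26 to 10.38, and above that of MAC1, 7.65 to 7.72, and WT yeast lay well above both. SOD1, the enzyme CCS1 serves and itself a copper and zinc protein, rose by 0.53, while the metallothionein copies CUP1-2 (-0.52) and CUP1-1 (-0.32), which probes may not separate, fell. Both CUP1 calls were lost without AhPDF1.1b replicate 1, that of CUP1-2 also without WT replicate 1, and that of CUP1-1 also with slide as a block (adjusted p = 0.063). In the Aft1 iron regulon 6 of 25 measured genes rose and 6 fell (4 and 2 with slide as a block), led by the biotin transporter VHT1 (1.18) and the heme oxygenase HMX1 (0.77). The regulator gene AFT2 had a difference of -0.45, whose call was lost with slide as a block (adjusted p = 0.12).

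Sulfate assimilation, which supplies methionine, cysteine and glutathione, had more genes that fell than rose. Of 31 measured genes 16 fell and 5 rose (11 and 2 with slide as a block), with a median of -0.20. MET16, the reductase of activated sulfate, gave 11.42 and 11.31 in AhPDF1.1b yeast, against 12.61 and 12.54 in WT yeast (difference -1.21, SE 0.07, adjusted p = 4.3e-07). MET1 (-1.17) and MET8 (-0.96), which make the siroheme cofactor of sulfite reductase, and MET3 (-0.60) of the first step also fell. On control medium the same 31 genes had 9 higher and 1 lower in AhPDF1.1b yeast, beside 187 and 165 of all 6226 genes tested. MET16 was higher on control medium by 0.69 (adjusted p = 0.00034). SAH1, which clears S-adenosylhomocysteine, rose by 0.78 under zinc.

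Redox genes were split. OYE2, an NADPH oxidoreductase, gave 11.28 and 11.28 in AhPDF1.1b yeast, against 13.58 and 13.28 in WT yeast (difference -2.15, SE 0.09, adjusted p = 6.5e-08), and its relative OYE3 fell by 2.02. The glutathione transferase GTT2 (-1.21), the glutaredoxin GRX3 (-1.21) and YAP1 (-0.55), which encodes the main activator of the oxidative stress response, fell. CTT1, the cytosolic catalase, gave 11.08 and 10.99 in AhPDF1.1b yeast, against 10.16 and 10.00 in WT yeast (0.96). Of 29 measured genes 9 rose and 10 fell (7 and 8 with slide as a block). The shares were 31.0% and 34.5%, beside 26.8% and 22.0% of all genes. Among 30 measured heat shock chaperones 12 rose and 6 fell (5 and 5 with slide as a block), from HSP30 (-1.55), a plasma membrane protein, and the Hsp110 gene SSE2 (-1.41) to the Hsp70 gene SSA2 (0.72).

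An ammonium permease gene was among the 15 largest decreases. MEP2, the high-affinity permease, gave 9.04 and 8.91 in AhPDF1.1b yeast, against 11.33 and 11.36 in WT yeast (difference -2.37, SE 0.08, adjusted p = 1.2e-08). The medium held ammonium nitrate in both conditions. MEP3, another ammonium permease, fell by 1.45 and the amidase-like gene AMD2 fell by 1.97, whereas the allantoin permease DAL4 rose by 1.01. Of 36 measured genes under nitrogen catabolite repression, the control by good nitrogen sources, 8 rose and 12 fell (5 and 8 with slide as a block), so that no single direction described them. The regulator gene GAT1 rose by 0.46 (adjusted p = 0.070 with slide as a block, and not passed without AhPDF1.1b replicate 1).

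FCY22, a permease of the purine and cytosine family, gave 6.10 and 6.16 in AhPDF1.1b yeast, against 9.15 and 9.16 in WT yeast (8.13-fold lower, difference -3.02, SE 0.09, adjusted p = 5.6e-09). URH1, which splits uridine, gave 7.68 and 7.64 in AhPDF1.1b yeast, against 10.36 and 10.41 in WT yeast (-2.73). Both genes lay under their control-medium ranges in AhPDF1.1b yeast, 6.75 to 7.19 for FCY22 and 8.07 to 8.37 for URH1, and above them in WT yeast. FCY21 (-1.53) and URA10 (-1.14), a minor enzyme of pyrimidine synthesis, fell, and URA1, dihydroorotate dehydrogenase, rose by 1.13. Of 20 measured genes of pyrimidine synthesis and salvage 5 rose and 9 fell (5 and 7 with slide as a block).

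Genes of the ribosome itself mostly rose, whereas more genes of its assembly fell than rose. Of 135 measured cytosolic ribosomal proteins 90 rose and 7 fell (63 and 2 with slide as a block), with a median of 0.39, beside 0.03 over all genes. RPS2 gave 14.04 and 14.05 in AhPDF1.1b yeast, against 12.97 and 13.06 in WT yeast (difference 1.03, SE 0.07, adjusted p = 1.0e-06), and its control-medium arrays ranged from 14.10 to 14.33. ASC1, which sits on the small subunit, gave 12.72 and 13.03 in AhPDF1.1b yeast, against 11.66 and 11.71 in WT yeast (1.19). Relative to control medium the median of the list was -0.14 in AhPDF1.1b yeast and -0.50 in WT yeast. Yeast has 2 near-identical genes for most of these proteins, which probes may not separate, so single paralogues are uncertain. The list was chosen by gene name only. Among 57 measured ribosomal proteins of the mitochondrion 6 rose and 12 fell. With slide as a block 7 fell and 0 rose (4 rose at an unadjusted p under 0.05). Among 68 measured genes of ribosome biogenesis 9 rose and 21 fell (4 and 8 with slide as a block), with a median of -0.12, and the processing factors UTP15 (-1.01) and IMP4 (-0.99) fell most.

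In the proteasome more genes rose than fell. Of 35 measured proteasome genes 17 rose and 2 fell (8 and 0 with slide as a block, where 2 fell at an unadjusted p under 0.05), with a median of 0.21. RPN10, a ubiquitin receptor of the proteasome, gave 11.87 and 11.92 in AhPDF1.1b yeast, against 11.32 and 11.28 in WT yeast (0.60, adjusted p = 4.4e-05), and the core subunit genes PUP1 (0.73) and PRE6 (0.63) rose. The genes that fell were PRE8 (-0.39) and PRE5 (-0.32), neither with slide as a block (adjusted p = 0.077 for PRE8 and 0.077 for PRE5), and the PRE5 call was also lost without any 1 of the 4 zinc arrays.

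**Figure D3:**
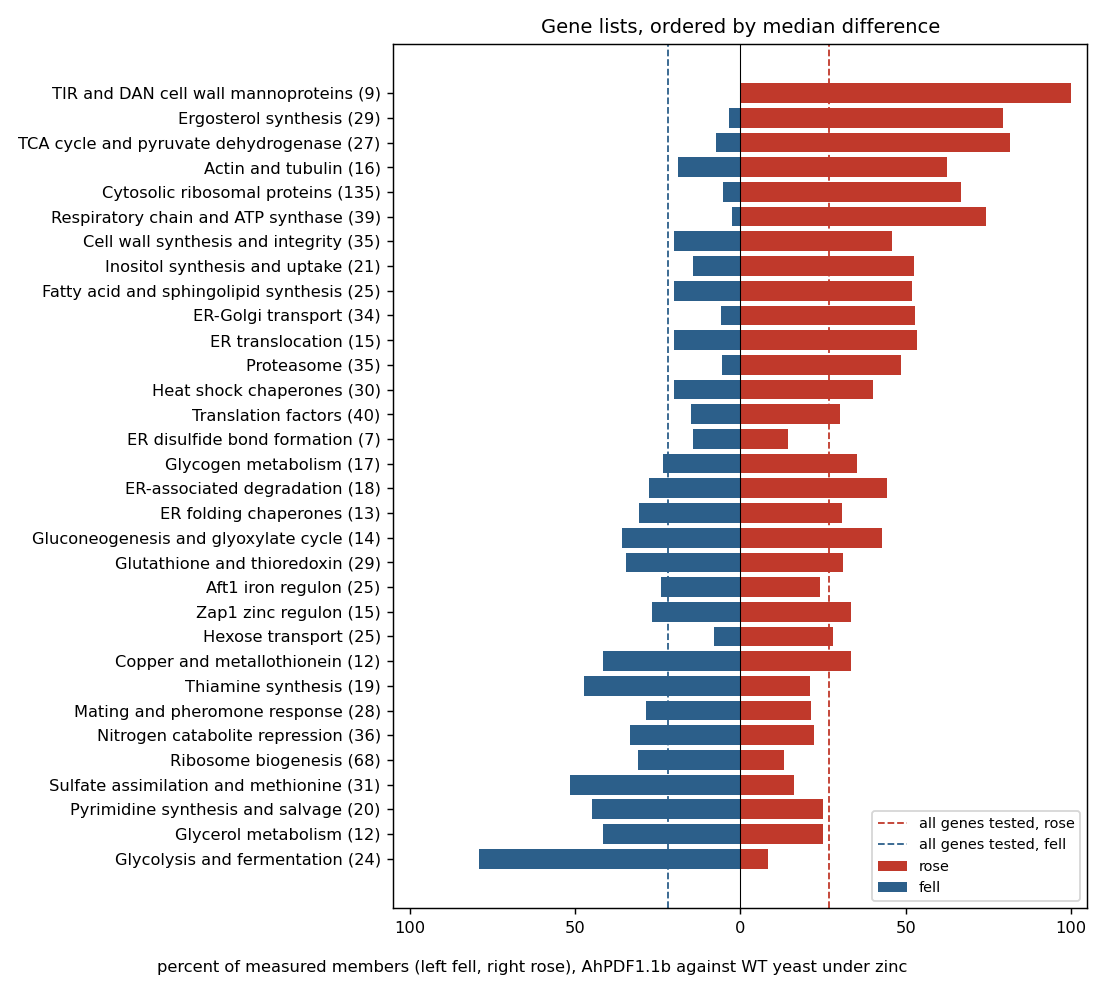
Share of measured members that rose (right, red) or fell (left, blue) in AhPDF1.1b yeast against WT yeast under zinc, for each described list with at least 7 measured genes (number in parentheses), ordered by the median difference. Dashed lines mark the shares over all genes tested, 26.8% rose and 22.0% fell. The cell wall mannoproteins of the TIR and DAN family stand at the top with 9 of 9 genes higher (their activator UPC2 included), and glycolysis and fermentation at the bottom with 19 of 24 lower.

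Transport out of the ER was higher in most genes that changed. Of 34 measured genes of transport between ER and Golgi 18 rose and 2 fell (10 and 1 with slide as a block), with a median of 0.22. ERV29, a receptor that packs soluble cargo into vesicles, gave 8.73 and 8.79 in AhPDF1.1b yeast, against 8.14 and 8.01 in WT yeast (0.69, SE 0.07, adjusted p = 3.4e-05). The coat genes SFB3 (0.52) and SEC13 (0.50) also rose, whereas ERV41 (-0.58) and SEC12 (-0.19) fell. The SEC12 call was lost with slide as a block (adjusted p = 0.25) and without any 1 of 6 of the 8 arrays. Among 15 measured genes of translocation into the ER 8 rose and 3 fell (4 and 1 with slide as a block). SEC61, the channel, gave 10.27 and 10.18 in AhPDF1.1b yeast, against 9.58 and 9.85 in WT yeast (0.51, adjusted p = 0.0015).

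Folding and degradation genes of the ER changed in both directions. KAR2 (YJL034W) gave 12.85 and 12.86 in AhPDF1.1b yeast, against 12.52 and 12.59 in WT yeast (0.30, adjusted p = 0.0064, and adjusted p = 0.13 with slide as a block). On control medium KAR2 was also higher in AhPDF1.1b yeast, by 0.36 (adjusted p = 0.019), so its difference was not particular to zinc. Of 13 measured genes listed for folding in the ER 4 rose and 4 fell (3 and 3 with slide as a block). Each share was 30.8%, beside 26.8% and 22.0% of all genes. The genes that rose were CPR5 (0.60), LHS1 (0.48), FPR2 (0.45) and KAR2. Those that fell were HLJ1 (-0.84), KRE5 (-0.70), ROT1 (-0.53) and CWH41 (-0.36, adjusted p = 0.064 with slide as a block). Of these, HLJ1, KRE5 and CWH41 are not chaperones of the ER lumen, so the list is broader than chaperones. For disulfide bonds, ERO1 fell by 0.85 and ERV2, the other oxidase, had a difference of 0.28, whose call was lost with slide as a block (adjusted p = 0.43) and without WT replicate 2, AhPDF1.1b replicate 1 or AhPDF1.1b replicate 2. In ER-associated degradation 8 of 18 measured genes rose and 5 fell (4 and 3 with slide as a block). HRD1, a ubiquitin ligase, gave 8.66 and 8.61 in AhPDF1.1b yeast, against 8.24 and 8.12 in WT yeast (0.46, adjusted p = 0.00052), and its partner gene HRD3 (0.45) and DER1 (0.41) rose with it, while USA1 (-0.51) of the same complex fell.

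HAC1, which encodes the activator of the unfolded protein response, gave 11.69 and 11.54 in AhPDF1.1b yeast, against 12.19 and 12.25 in WT yeast (-0.60, adjusted p = 0.00068). AhPDF1.1b yeast lay near the control-medium range of HAC1, 11.39 to 11.68. The signal is not assigned to the spliced or unspliced transcript. The other 3 measured genes of this signalling did not pass, among them the tRNA ligase TRL1 that joins the spliced HAC1 transcript (0.15, adjusted p = 0.11).

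Cell surface genes included 1 list in which all members rose. The 9 measured genes of the TIR and DAN list, which are mannoproteins best known from anaerobic growth together with their activator UPC2, all rose (8 with slide as a block), with a median of 0.55. TIR3 (YIL011W) gave 9.01 and 9.11 in AhPDF1.1b yeast, against 7.20 and 7.29 in WT yeast (3.52-fold higher, difference 1.82, SE 0.08, adjusted p = 5.7e-08). WT yeast was under the control-medium range of TIR3, 7.49 to 7.65, and AhPDF1.1b yeast above it. TIR4 (0.96) and DAN1 (0.83) followed. Of 35 measured genes of wall synthesis and integrity 16 rose and 7 fell (10 and 4 with slide as a block). CIS3, a covalently bound wall protein, gave 11.35 and 11.57 in AhPDF1.1b yeast, against 9.67 and 9.93 in WT yeast (1.66, adjusted p = 5.6e-06), with AhPDF1.1b yeast inside its control-medium range of 11.31 to 11.78. The glucan-remodelling enzyme GAS1 fell by 0.77.

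A pair of genes that act in the separation of daughter from mother cells, DSE4 and EGT2, were among the largest increases. DSE4, a glucanase of the septum, gave 10.25 and 10.37 in AhPDF1.1b yeast, against 8.78 and 8.78 in WT yeast (2.89-fold higher, difference 1.53, SE 0.08, adjusted p = 2.6e-07). EGT2, a wall protein of cell separation, gave 10.07 and 10.06 in AhPDF1.1b yeast, against 8.71 and 8.78 in WT yeast (1.32). In RNA of whole colonies, a smaller share of cells in 1 state and less RNA per cell cannot be told apart.

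Of 16 measured actin and tubulin genes 10 rose and 3 fell (8 and 1 with slide as a block). TUB2, beta-tubulin, gave 9.35 and 9.31 in AhPDF1.1b yeast, against 8.57 and 8.66 in WT yeast (0.72, adjusted p = 2.8e-05), and the tropomyosin TPM1 rose by 0.76. ACT1, actin, gave 12.49 and 12.69 in AhPDF1.1b yeast, against 12.47 and 12.27 in WT yeast, and did not pass (0.22, adjusted p = 0.11). TUB1, alpha-tubulin, had a difference of -0.29, which did not pass with slide as a block (adjusted p = 0.11) or without AhPDF1.1b replicate 2.

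MCM1, which encodes a transcription factor used in mating type, cell cycle and metabolic genes, gave 9.55 and 9.69 in AhPDF1.1b yeast, against 11.57 and 11.81 in WT yeast (difference -2.07, SE 0.09, adjusted p = 5.7e-08). AhPDF1.1b yeast lay near the control-medium range of MCM1, 9.70 to 9.79. Of 28 measured genes of mating and pheromone response 6 rose and 8 fell (2 and 6 with slide as a block). These were 21.4% and 28.6%, beside 26.8% and 22.0% of all genes. Other genes among the largest changes were the membrane transporter AQR1 (-2.28), which exports acids and drugs, the secreted glycoprotein YGP1 (-2.15), the serine hydroxymethyltransferase SHM2 (1.19), the sterol-binding protein PRY1 (1.30) and ECM13 (1.19). AQR1 gave 9.63 and 9.69 in AhPDF1.1b yeast, against 11.92 and 11.95 in WT yeast, and its control-medium arrays ranged from 9.52 to 9.77.

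The probes of LEU2 and MET17 (MET15), both deleted in BY4741, gave 5.58 to 5.61 in AhPDF1.1b yeast and 5.58 to 5.65 in WT yeast. The 6 markers of a cells summed to 10.83 to 10.85 (log2 of the summed signal) in AhPDF1.1b yeast and 10.57 to 10.70 in WT yeast, where STE2 (0.99) and STE6 (0.56) rose and MFA2 (-0.51) and AGA2 (-0.46) fell. STE2 was also higher in AhPDF1.1b yeast on control medium, by more than under zinc (difference between media -0.67). The 4 markers of alpha cells summed to 9.01 to 9.11 in AhPDF1.1b yeast and 8.69 to 8.72 in WT yeast. Of them 3 rose, STE3 (0.53), MF(ALPHA)1 (0.38) and SAG1 (0.35). MF(ALPHA)1 gave 6.28 and 6.32 in AhPDF1.1b yeast, against 5.84 and 6.00 in WT yeast, not far above the deleted genes. Its control-medium arrays ranged from 7.61 to 8.41. The calls of STE6 (adjusted p = 0.075) and SAG1 (adjusted p = 0.05) were lost with slide as a block, and that of MFA2 without WT replicate 1 or AhPDF1.1b replicate 1. URA3, the marker of pYX212, gave 14.54 and 14.41 in AhPDF1.1b yeast, against 15.56 and 15.64 in WT yeast (-1.12, adjusted p = 1.4e-05). These WT yeast values were the highest of their arrays, and each was shared, by 6 probes in WT replicate 1 (those of HSP30 and TDH1 among them) and by 3 in WT replicate 2, so that a higher level in WT yeast may not have been resolved for these genes. HIS3, the marker of the shared vector, differed by -0.35, which did not pass with slide as a block (adjusted p = 0.20) or without WT replicate 1. The part of these markers in the other results was not tested.

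The difference between AhPDF1.1b yeast and WT yeast under zinc was then set beside that on control medium, measured on 4 other arrays. On control medium 352 genes (5.65%) were called, 187 higher and 165 lower in AhPDF1.1b yeast, and 10 of them by at least 1. This count was 94 without WT replicate 1 and 98 without WT replicate 2 of control medium, and 206 and 220 without AhPDF1.1b replicate 1 and 2. The median size of the difference over all genes was 0.21 under zinc and 0.09 on control medium, and across genes, which are not independent, both differences correlated at r = 0.02. Of the 244 genes called on both media, which are 69.3% of those on control medium and 8.03% of those under zinc, 132 had the same sign. Tested directly, the AhPDF1.1b difference under zinc and that on control medium were unequal for 2095 genes (33.6%), more positive under zinc for 1100 and more negative for 995. With slide as a block these were 1258 genes, 600 more positive and 658 more negative. By this test the glycolysis list had 17 genes more negative under zinc and 2 more positive (16 and 1 with slide as a block), cytosolic ribosomal proteins 81 more positive and 4 more negative (48 and 2), and ergosterol genes 18 more positive and 1 more negative (16 and 1). URA3 is not compared between media, since its WT yeast values under zinc lay at the shared top of their arrays. HSP30 and TDH1 shared that top in WT replicate 1 under zinc, so their differences between media, given below, carry the same limit for that array. KAR2 and TUB1 did not pass this test (adjusted p = 0.69 for KAR2 and 0.99 for TUB1). KAR2 was higher in AhPDF1.1b yeast by 0.30 under zinc and by 0.36 on control medium. ADY2 (-0.87 under zinc, -0.72 on control medium) and GAT1 (0.46 and 0.45) did not pass it either (adjusted p = 0.45 and 0.98).

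**Figure D4:**
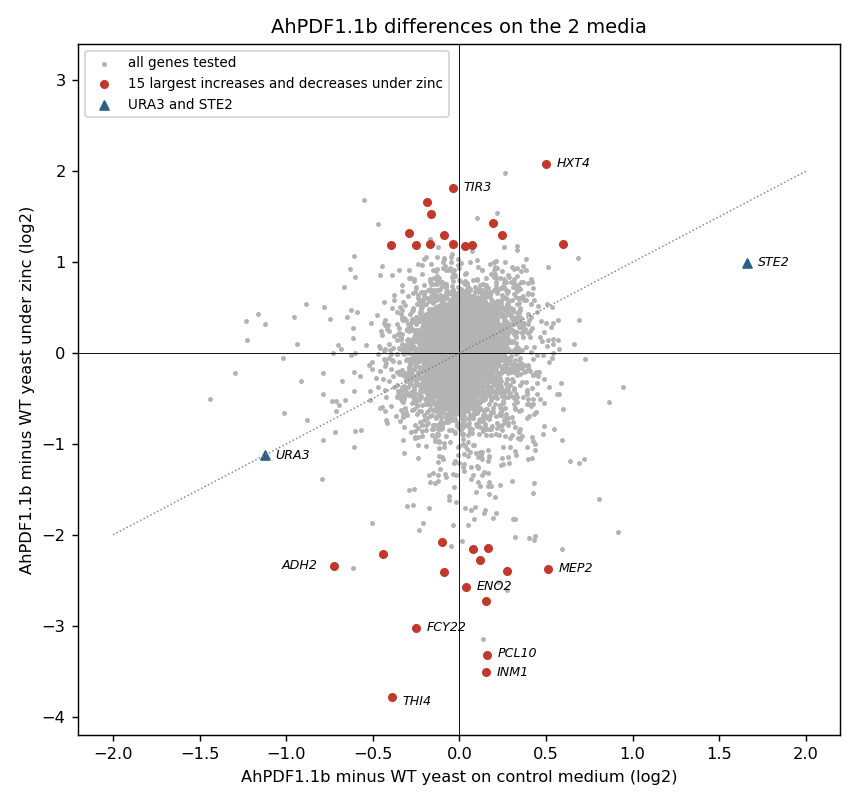
Difference between AhPDF1.1b yeast and WT yeast under zinc (vertical axis, log2) against that on control medium (horizontal axis, log2) for each gene tested. Red points are the 15 largest increases and 15 largest decreases under zinc, triangles are URA3 and STE2, and the dotted line marks equal differences. The spread is wider along the vertical axis, and the largest decreases under zinc lie between -0.73 (ADH2) and 0.51 (MEP2) on the horizontal one.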

How the data were processed

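RNA of yeast colonies was hybridised to one-colour Agilent arrays with Cy3-labelled cRNA, 1 sample on each of 8 arrays and 2 biological replicates in each of 4 conditions. The authors deposited log2 signals, processed with R 2.14.2 and limma per the labels. The columns have nearly the same quantiles, so they were already normalized between arrays. The sources used here do not give how background was handled, how arrays were normalized or whether probes were filtered. No background flags were used, so whether a dim signal lies above background is not known.

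The 6227 probes gave 6226 genes after averaging 2 probes of 1 gene. Of these, 4060 had a symbol in the platform annotation (125 symbols were updated to current names) and 2166 had none and were tested but not named. The deposited values were fitted with limma 3.58.1 in R 4.3.3 (lmFit and eBayes, 4 condition means, residual df 4, prior df 6.36), and p-values were adjusted by Benjamini-Hochberg over all genes, with a threshold of 0.05. Precision is limited by having 2 arrays a condition. The fit was tested on simulated data. With slide as a block, the slide term passed for 0 genes after adjustment and for 104 at an unadjusted p under 0.05, and its median size was 0.05 on the log2 scale.

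Named genes were the plasmid markers and genes the study itself followed, the 15 largest increases and 15 largest decreases with a symbol whose arrays did not overlap, and, from each described list, up to 5 members with the smallest p and the regulator. Others, named because a count was 5 or fewer or for their place in a pathway (such as PDC1, PFK1, TDH3 and ZRT1), were chosen after their values were seen. Genes, lists and tests were chosen with earlier results of these data known. Lists were described by counts and medians without a set test. 1 further gene list is not reported here. Alternatives were other normalizations, filters, blocks, weights and moderation, and leaving out each array. A search for promoter motifs was not run, since no promoter sequences were used here.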

Additional observations from a re-analysis of the deposited data

Results flagged for a closer look

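For 151 of the 184 named genes the difference between AhPDF1.1b yeast and WT yeast was unequal under zinc and on control medium. This was by the interaction term of the limma fit, at an adjusted p under 0.05. Over all genes tested this share was 33.6%. Most named genes were chosen by their difference under zinc, which is part of this term. The choice itself therefore favoured a high count, and the count says nothing about genes in general. The values given are the log2 difference between AhPDF1.1b yeast and WT yeast under zinc minus that on control medium, from 2 arrays in each of the 4 conditions, and 77 were positive and 74 negative. With slide as a block 18 of them did not pass. No group was large enough to look for single outlying arrays. Below, effect means the difference between AhPDF1.1b yeast and WT yeast, in which slide and defensin cannot be told apart directly under zinc.

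Among thiamine genes the effect was more negative under zinc for THI4 (-3.40), PHO3 (-1.77), THI20 (-1.17), THI6 (-1.16), THI3 (-0.48) and THI2 (-0.27), and more positive for THI5 (1.08), THI12 (0.97), THI11 (0.87) and THI13 (0.60). Among genes of glycolysis, fermentation and their regulators the effect was more negative under zinc for ENO2 (-2.61), PDC5 (-2.31), ENO1 (-1.98), TDH2 (-1.86), TYE7 (-1.72), TDH1 (-1.33), PFK2 (-1.22), PGK1 (-1.07), TDH3 (-1.02), PFK1 (-0.56), GCR1 (-0.52), GCR2 (-0.52) and TPI1 (-0.52), and more positive for HXK1 (0.67) and PDC6 (0.53). Among genes of hexose uptake, glycerol, glycogen and ethanol use the effect was more negative under zinc for PCL10 (-3.48), GPP2 (-2.68), HXT1 (-2.45), DAK2 (-2.41), ADH2 (-1.61) and GPP1 (-0.83), and more positive for HXT4 (1.59), SUC2 (1.56), GPH1 (1.29), ICL1 (1.27), HXT7 (1.01), GPD1 (0.97), SFC1 (0.91) and MDH2 (0.79). Among genes of the TCA cycle and respiratory chain the effect was more negative under zinc for RTG3 (-1.06) and COX7 (-0.86), and more positive for ATP7 (0.84), ATP1 (0.72), LPD1 (0.71), SDH3 (0.70), IDH1 (0.69), IDH2 (0.69), CYT1 (0.63), ATP5 (0.62), HAP1 (0.54) and QCR6 (0.35). Among sterol and fatty acid genes the effect was more negative under zinc for SCS7 (-1.79), SUR2 (-1.42), ERG8 (-0.74), LAC1 (-0.66) and AUR1 (-0.41), and more positive for FAS1 (1.44), OLE1 (1.39), FAS2 (1.37), ACC1 (1.29), ERG25 (1.23), ERG20 (1.13), ERG3 (1.13), ERG10 (1.09), MGA2 (0.80), ERG27 (0.74) and UPC2 (0.62). Among inositol and phospholipid genes the effect was more negative under zinc for INM1 (-3.67), and more positive for OPI3 (1.24), CHO2 (1.03) and HNM1 (0.92). Among metal genes the effect was more negative under zinc for CCS1 (-1.74), MAC1 (-1.30), FET4 (-0.70), AFT2 (-0.66), CUP1-2 (-0.66), ADH4 (-0.65), CUP1-1 (-0.54) and ZRC1 (-0.40), and more positive for VHT1 (1.15), DPP1 (0.81), ZRT1 (0.73), MCD4 (0.61), HMX1 (0.51), ZAP1 (0.51), ZRT2 (0.51) and SOD1 (0.48). ZRT1 and ZAP1 did not pass under zinc, and their positive values come mainly from a lower signal in AhPDF1.1b yeast on control medium. On that medium the ZAP1 regulon list had 2 of 15 measured genes higher and 3 lower in AhPDF1.1b yeast. Over all 6226 genes tested these were 187 and 165.

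Among sulfur, redox and heat shock genes the effect was more negative under zinc for OYE3 (-2.34), OYE2 (-2.31), MET16 (-1.90), HSP30 (-1.72), SSE2 (-1.71), MET1 (-1.57), GTT2 (-1.49), MET8 (-1.39), GRX3 (-1.18), MET3 (-0.83) and YAP1 (-0.47), and more positive for CTT1 (1.40), SAH1 (0.88) and SSA2 (0.55). Among nitrogen and pyrimidine genes the effect was more negative under zinc for AMD2 (-2.88), MEP2 (-2.88), URH1 (-2.88), FCY22 (-2.77), MEP3 (-1.68), FCY21 (-1.63) and URA10 (-1.25), and more positive for DAL4 (0.80) and URA1 (0.79). Among ribosome and proteasome genes the effect was more negative under zinc for IMP4 (-0.89) and UTP15 (-0.77), and more positive for ASC1 (1.58), RPS2 (1.24), PRE6 (0.67), PUP1 (0.64) and RPN10 (0.50). Among ER and transport genes the effect was more negative under zinc for ERO1 (-1.20), KRE5 (-0.85), HLJ1 (-0.68), HAC1 (-0.64), ROT1 (-0.63), ERV41 (-0.49) and USA1 (-0.49), and more positive for CPR5 (0.71), SEC13 (0.58), ERV29 (0.56), SFB3 (0.47), HRD1 (0.42), SEC61 (0.39) and DER1 (0.33). Among wall, daughter cell, cytoskeleton and mating genes the effect was more negative under zinc for MCM1 (-2.08), STE2 (-0.67) and GAS1 (-0.36), and more positive for TIR3 (1.85), CIS3 (1.84), DSE4 (1.69), EGT2 (1.61), MF(ALPHA)1 (1.13), DAN1 (1.12), TIR4 (1.04), TPM1 (0.91), TUB2 (0.79), STE3 (0.59) and STE6 (0.56). Among other named genes the effect was more negative under zinc for AQR1 (-2.39), YGP1 (-2.23) and HIS3 (-0.51), and more positive for SHM2 (1.12), PRY1 (1.06) and ECM13 (0.60).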

How the results depend on the processing

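None of the 171 named genes called under zinc changed sign under any alternative run, and 148 kept their call under every alternative that tested them (10 were not tested with the dimmest 25% of genes left out, and the minimum change was applied to counts only). Slide as a block ended 19 of these calls and leaving out single arrays 16. The count under zinc became 1755 with slide as a block (889 rose, 866 fell) and 183 with a minimum log2 change of 1 (42 rose, 141 fell). For the difference between zinc and control medium the counts were 1258 with slide as a block (600 positive, 658 negative) and 246 with the minimum of 1 (71 positive, 175 negative). On control medium the minimum of 1 left 10 genes (1 higher, 9 lower). The cause of the change with slide was not tested. Other normalization, centring, moderation, array weights, the 4 zinc arrays alone, or leaving out the dimmest 25% of genes gave 2572 to 3091 genes under zinc.

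Leaving out each array in turn gave 2433 to 3149 genes under zinc (1295 to 1730 rose, 1134 to 1419 fell), 1584 to 2019 for the difference between media (805 to 1041 positive, 779 to 978 negative) and 94 to 332 on control medium (39 to 179 higher, 53 to 160 lower). The control-medium count was 94 without WT replicate 1 and 98 without WT replicate 2 of that medium, and 206 and 220 without AhPDF1.1b replicate 1 and 2.

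The replicate numbers were not taken as pairs. Deviations of same-numbered arrays correlated at -0.30 between the zinc conditions and at -0.53 to 0.54 over the 6 pairs of conditions, with 3 of 6 negative, each of them with the zinc arrays of AhPDF1.1b yeast. A replicate block gave 2916 genes under zinc (1603 rose, 1313 fell), 1933 for the difference between media and 279 on control medium. Since the correlation under zinc was negative, a block with the numbers of the AhPDF1.1b zinc arrays exchanged was added after seeing the data, and gave 3521 genes under zinc, 2719 for the difference and 781 on control medium (426 higher, 355 lower). Among genes not called, ZRT1 turned from -0.0005 to 0.0031 with median centring, 0.0009 with quantile normalization and -0.032 to 0.031 over the single arrays left out (0.013 without WT replicate 2 and 0.031 without AhPDF1.1b replicate 2). LEU2 ranged over the same settings from -0.056 to 0.010, and turned positive without WT replicate 1. With 2 arrays a condition and unknown background, small differences between dim signals are the least certain.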

Other observations

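Lists beyond those described above were counted in the same way under zinc, beside 26.8% rising and 22.0% falling over all genes. Of 21 measured genes of purine synthesis 12 rose and 4 fell (7 and 2 with slide as a block), with a median of 0.25. Of 39 genes of DNA replication 13 rose and 3 fell (5 and 1 with slide as a block), with a median of 0.12. Of 20 cyclins 8 rose and 1 fell, with a median of 0.12, and in the limma fit with slide as a block 5 rose and 0 fell (1 fell at an unadjusted p under 0.05). Among 25 genes of the vacuolar ATPase and vacuolar hydrolases 7 rose and 1 fell (3 and 1 with slide as a block). Genes of amino acid synthesis under Gcn4 moved both ways, with 13 of 51 higher and 14 lower (9 and 9 with slide as a block) and a median of -0.005. Of 7 genes of trehalose metabolism 1 rose and 4 fell (1 and 1 with slide as a block), with a median of -0.23, and of 25 genes of the phosphate pathway 3 rose and 6 fell (1 and 4 with slide as a block).

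In the other lists the directions were mixed. For translation factors 12 of 40 measured genes rose and 6 fell (8 and 4 with slide as a block), for genes of general stress under Msn2 and Msn4 8 of 27 rose and 6 fell (6 and 3), and for the peroxisome and fatty acid oxidation 10 of 27 rose and 5 fell (5 and 3). Heme synthesis and hypoxic genes had 6 of 16 higher and 5 lower (4 and 2 with slide as a block), and manganese and calcium transport 5 of 14 higher and 3 lower (5 and 2). Iron-sulfur cluster assembly had 1 of 16 higher and 4 lower (1 and 2 with slide as a block), and amino acid catabolism 4 of 12 in each direction (2 higher and 3 lower with slide as a block). Of 10 histone genes 1 rose and 2 fell, and in the limma fit with slide as a block 0 rose (1 at an unadjusted p under 0.05) and 2 fell.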
